A study of Mus musculus with 11 samples.

Results

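The genes described here are 9 genes of sympathetic noradrenergic neurons: Th, Ddc, Dbh, Slc6a2, Slc18a2, Phox2a, Npy, Chga and Chgb. Each was followed through the Affymetrix probe sets that the platform annotation assigns to its symbol alone. Of the 9 genes, 8 had such a probe set, 1 each, among 22626 probe sets without controls, and Slc18a2, the vesicular monoamine transporter, had no such probe set in the annotation used here and was not analysed. The probe sets are 1420546_at (Th), 1426215_at (Ddc), 1450670_at (Dbh), 1421641_at (Slc6a2), 1418620_at (Phox2a), 1419127_at (Npy), 1418149_at (Chga) and 1415885_at (Chgb). They stand for 8 of 12393 genes named in this way. All 8 probe sets passed the filter on low values and are among the 14988 that were tested.

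Sympathetic neurons release noradrenaline onto blood vessels, and their axons reach the artery wall through the adventitia, its outer connective tissue layer. Noradrenaline is made from tyrosine in steps: tyrosine hydroxylase makes L-DOPA, aromatic L-amino acid decarboxylase makes dopamine, and dopamine beta-hydroxylase, inside the vesicle, makes noradrenaline. The transmitter is stored with granins and neuropeptide Y, and a transporter in the cell membrane takes it back up.

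The study measured gene expression in adventitia of the abdominal aorta, cut out with a laser from sections of male mice aged 78 weeks on chow, on 11 arrays. In 4 of them the tissue came from Apoe-deficient mice (B6.129P2-Apoe<tm1Unc>/J, a germline deletion of apolipoprotein E that leads to atherosclerosis) and held artery tertiary lymphoid organs (ATLO), which are lymphocyte aggregates in the adventitia beside a lesion. Another 4 came from the same strain, from adventitia outside the lesion area by the sample labels, although the series design text calls this group mice without lesions, and 3 came from C57BL wild-type mice. Whether arrays of the same group represent different animals is not given by any label. The p-values therefore rest on the spread from array to array alone, and that spread may be technical. The Apoe-deficient samples were cut out with a laser. Each pooled 200 sections of 10 micrometres, from aortas removed together with paraaortal lymph nodes, fat and connective tissue. Their RNA came from a phenol and chloroform extraction followed by RNeasy Micro columns, with an in vitro transcription of 68 h, whereas wild-type RNA came from an RNeasy Lipid Tissue kit, with a transcription of 24 h. The letters PNS stand in the wild-type titles alone and are explained by no label. No number or thickness of sections is given for wild type, and whether that tissue was dissected differently is not known. Genotype and preparation therefore cannot be told apart in either comparison with wild type.

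Values are signals as scaled by the authors, on a linear scale, with no count behind them, so the number of arrays limits the precision. Signals under 35.1, the 20th percentile of all values, were raised to that floor before log2 was taken. The Apoe probe set read 86.9 to 150.2 on the ATLO arrays, 45.9 to 179.7 on the outside-lesion arrays and 11969.4 to 13164.3 on the wild-type arrays, so all 11 arrays matched their genotype labels. The actin 3' to 5' ratio, a sign of RNA integrity, lay between 1.71 and 8.14 for ATLO, between 6.22 and 12.0 for outside-lesion and between 4.19 and 5.40 for wild-type arrays. The Gapdh ratio lay between 1.09 and 3.18, between 1.27 and 2.13 and between 1.10 and 1.30 in the same order, and was highest on an ATLO array. In bulk tissue, fewer neurons or nerve fibres and less RNA in each cannot be told apart, and no array separates axons from cell bodies.

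Promoter windows were taken from RefSeq (GRCm38.p6) to show what the genes hold just before their start sites. Of the 9 genes, 8 had a window, and Slc6a2 is only named. The 250 bases before each start were searched on both strands for the full palindrome of the cAMP response element, TGACGTCA, and for its core, TGACG, which every full element contains on both strands. The full element was present in 2 of the 8 windows, those of Th and Chgb, and in 1.55% of 32851 windows of that length. The core was present in 4 of 8, Th, Chgb, Chga and Dbh, and in 17.8% of all windows. The 3 sequences below are the 100 bases before the start, 5′ to 3′ on the gene's strand, for the members with a core in that stretch. Capitals mark the element or its core.
Th (chr7:142899996-142900095, minus strand): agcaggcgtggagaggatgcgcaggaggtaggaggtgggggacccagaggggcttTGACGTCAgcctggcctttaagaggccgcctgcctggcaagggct
Chgb (chr2:132781542-132781641, plus strand): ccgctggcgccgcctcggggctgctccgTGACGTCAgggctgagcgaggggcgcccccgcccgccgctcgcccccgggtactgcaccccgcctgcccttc
Chga (chr12:102554841-102554940, plus strand): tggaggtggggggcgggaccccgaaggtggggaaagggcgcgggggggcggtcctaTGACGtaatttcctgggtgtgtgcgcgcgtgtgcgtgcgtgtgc
The first base of the element lay 45 bases before the start in Th and 72 in Chgb, and the core in Chga began 44 bases before the start. In Dbh the core lay farther out, at 222 bases before the start. An E-box (CANNTG) was in 5 of 8 windows against 66.2% of all, the homeodomain core ATTA in 5 of 8 against 54.9%, a TATA box (TATAAA) in 1 of 8, that of Ddc, against 12.4%, and the letters TTCAGCACC, part of the RE1 element, in 0 of 8 against 0.301%. These matches describe letters only, and the arrays hold no measurement of binding at them.

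None of the 8 genes differed between the groups by the fit over all probe sets, and the arrays of any group spread widely. Th, Ddc, Dbh, Npy and Chgb each varied from 12.3-fold to 49.6-fold among the outside-lesion arrays and from 12.7-fold to 42.6-fold among the wild-type arrays. The same arrays were high for nearly every gene: wild-type replicate 1 gave the highest signal of all 11 arrays for 8 of 8 genes, and outside-lesion replicate 4 the second highest for 6 of 8. Among the ATLO arrays the same 5 genes varied from 2.56-fold to 6.23-fold.

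**Figure D1:**
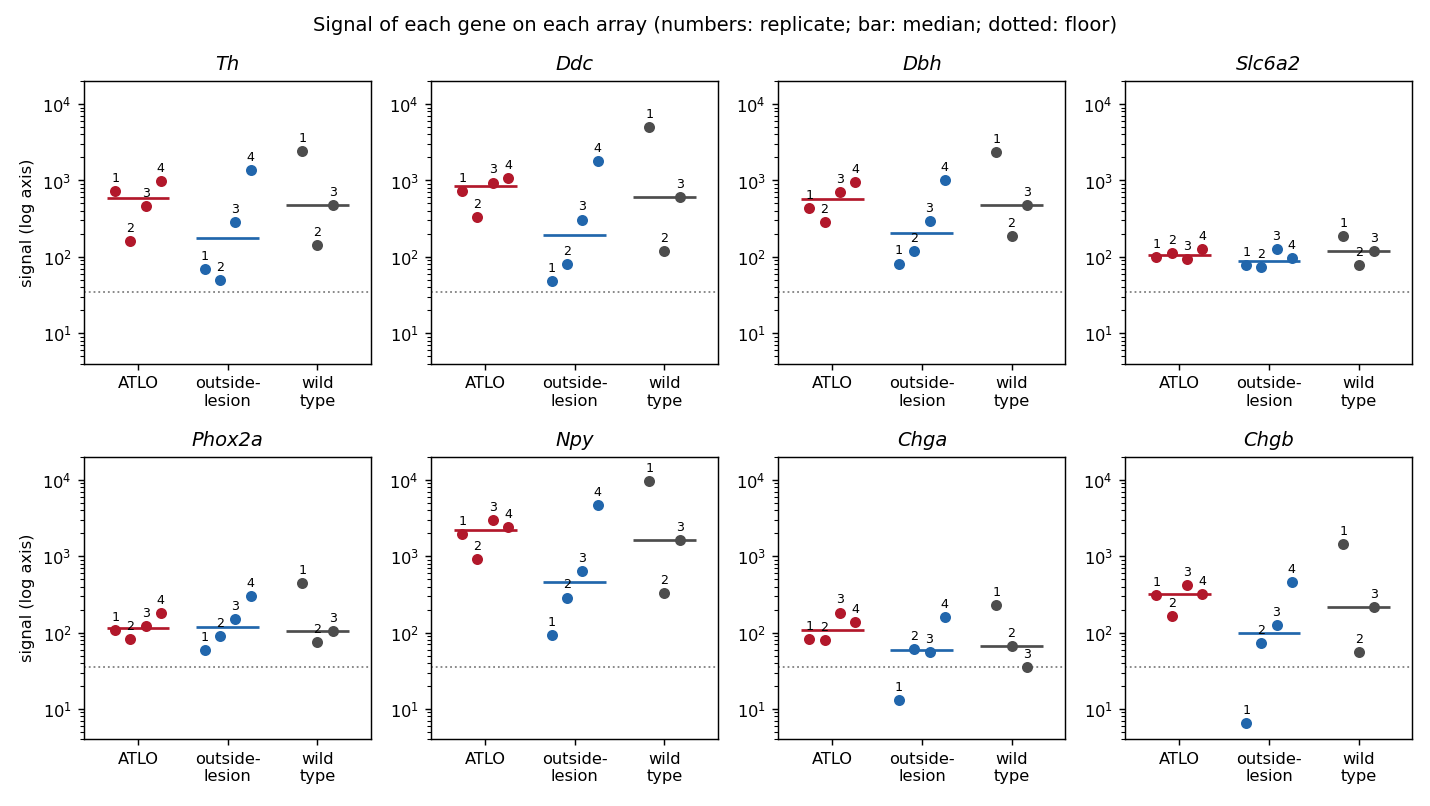
Signal of each of the 8 measured genes on each of the 11 arrays (vertical log axis, scaled signal), by group, with replicate numbers beside the points. Bars are group medians and the dotted line is the floor of 35.1. Wild-type replicate 1 is the highest point in every panel, and the groups overlap in every panel.

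Th encodes tyrosine hydroxylase, the rate-limiting enzyme of catecholamine synthesis. Its signal was 717.2, 159.7, 462.6 and 995.4 on ATLO replicates 1 to 4, 69.9, 49.3, 286.6 and 1368.3 on outside-lesion replicates 1 to 4, and 2462.1, 142.2 and 470.3 on wild-type replicates 1 to 3. Outside-lesion replicates 1 and 2 were the lowest of the 11 arrays and wild-type replicate 1 and outside-lesion replicate 4 the highest, so each pair of groups overlapped. The means were 584 ± 357 (SD, n = 4) in ATLO, 444 ± 626 (SD, n = 4) outside lesions and 1025 ± 1255 (SD, n = 3) in wild type. ATLO minus outside-lesion was 1.32 ± 1.01 on the log2 scale (SE, 95% interval -0.85 to 3.50, limma adjusted p = 0.350).

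Ddc encodes the decarboxylase that acts on L-DOPA. Its signal was 736.8, 331.0, 939.9 and 1085.5 on the ATLO arrays, 48.8, 79.6, 308.2 and 1784.4 on the outside-lesion arrays, and 5039.0, 118.3 and 608.4 on the wild-type arrays. The lowest ATLO array lay above 3 of the 4 outside-lesion arrays, and the fourth outside-lesion array lay above every ATLO array. The log2 difference between ATLO and outside-lesion was 1.72 ± 1.11 (SE, 95% interval -0.68 to 4.11, limma adjusted p = 0.267).

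Dbh encodes dopamine beta-hydroxylase, which marks noradrenergic and adrenergic cells among those that make catecholamines. It read 441.8, 286.0, 709.3 and 946.1 on the ATLO arrays, 81.9, 117.9, 291.9 and 1011.0 outside lesions, and 2380.9, 187.5 and 473.2 in wild type. Replicate 1 of wild type was again above all others, and replicate 2 of wild type lay below every ATLO array. ATLO minus outside-lesion was 1.22 ± 0.79 on the log2 scale (SE, 95% interval -0.49 to 2.93, limma adjusted p = 0.268).

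Slc6a2 encodes the noradrenaline transporter, which returns released transmitter to the axon. Its signal stayed in a narrow range, at 99.3, 111.8, 94.1 and 126.7 on the ATLO arrays, 78.6, 74.3, 128.1 and 96.1 on the outside-lesion arrays, and 189.7, 78.7 and 119.5 on the wild-type arrays. It varied 1.35-fold, 1.72-fold and 2.41-fold within the groups, and outside-lesion replicate 3, not replicate 4, was the highest of its group. The Slc6a2 signals lay on both sides of the 40th percentile of the arrays (93.1 to 124.2), which the filter on low values uses. Whether the probe set responds to its transcript at that level was not tested. The difference between ATLO and outside-lesion was 0.22 ± 0.31 on the log2 scale (SE, 95% interval -0.44 to 0.88, limma adjusted p = 0.624).

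Phox2a encodes a homeodomain transcription factor of noradrenergic neurons that can activate Dbh. Its signal was 109.5, 82.4, 121.3 and 178.6 on the ATLO arrays, 58.4, 91.3, 148.6 and 298.6 on the outside-lesion arrays, and 444.5, 75.9 and 105.6 on the wild-type arrays. It was the one member whose fitted ATLO minus outside-lesion difference was below 0, at -0.07 ± 0.56 on the log2 scale (SE, 95% interval -1.27 to 1.13, limma adjusted p = 0.938).

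Npy encodes neuropeptide Y, a vasoconstrictor peptide released with noradrenaline. The signal was 1974.8, 923.8, 2936.0 and 2407.0 on the ATLO arrays, 93.9, 287.6, 641.4 and 4656.1 on the outside-lesion arrays, and 9676.1, 325.6 and 1628.0 on the wild-type arrays. Outside-lesion replicates 1 to 3 lay below all 4 ATLO arrays, and replicate 4 lay above all 4. The 49.6-fold range outside lesions was the widest of any member in any group after the floor. ATLO minus outside-lesion was 1.83 ± 1.07 on the log2 scale (SE, 95% interval -0.48 to 4.14, limma adjusted p = 0.218). Without outside-lesion replicate 4 the difference was 2.87 with a limma adjusted p of 0.0335, and Npy was then the only member called.

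Chga and Chgb encode chromogranin A and chromogranin B, acidic proteins of the matrix of dense-core vesicles. Chga read 82.1, 79.3, 183.0 and 136.8 on the ATLO arrays, 13.2, 61.7, 55.4 and 158.9 on the outside-lesion arrays, and 228.9, 66.1 and 35.5 on the wild-type arrays. Chgb read 314.3, 163.2, 417.8 and 319.4 on the ATLO arrays, 6.5, 74.0, 125.9 and 458.1 on the outside-lesion arrays, and 1449.1, 56.5 and 216.1 on the wild-type arrays. Outside-lesion replicate 1 was under the floor for both genes, so their ranges in that group, 4.53-fold and 13.1-fold after the floor, are lower bounds. The log2 difference between ATLO and outside-lesion was 0.77 ± 0.57 for Chga (SE, limma adjusted p = 0.335). It depends on the floor, at 1.13 with a floor at the 10th percentile of all values and 0.467 at the 30th. For Chgb it was 1.38 ± 0.87 (SE, limma adjusted p = 0.251), and it also depends on the floor, at 1.78 with the 10th percentile and 1.15 with the 30th.

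In ATLO against outside-lesion adventitia, 0 of 8 members were called at an adjusted p under 0.05 by limma, and 0 at an unadjusted p under 0.05, of which the lowest was 0.111. Over all tested probe sets 31.9% were called, and in 30.4% the groups did not overlap, which was so for 0 of 8 members. The fitted difference was above 0 for 7 of 8 members, with a median of 1.27 on the log2 scale against 0.10 over all tested probe sets, of which 57.4% were above 0. Setting the array medians equal lowered the all-probe median by 0.12, and the members' differences then had the same signs. The intervals of Th, Ddc, Dbh, Npy and Chgb each reached above 2 on the log2 scale and below 0. They therefore include no difference as well as a difference of more than 4-fold.

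Leaving out 1 array changed a call. Without outside-lesion replicate 4, Npy was called as given above, while Ddc stood at 2.73 (limma adjusted p = 0.056), Dbh at 1.93 (0.061), Th at 2.27 (0.074) and Chgb at 2.06 (0.081). Chga, Phox2a and Slc6a2 had adjusted p-values from 0.136 to 0.670 in that fit. Other omissions moved the values the other way. Without outside-lesion replicate 1 the log2 difference was 0.836 for Th, 1.0 for Ddc, 0.725 for Dbh, 0.995 for Npy, 0.47 for Chga and 0.826 for Chgb, with limma adjusted p-values from 0.516 to 0.611. Without outside-lesion replicate 2 it was 0.668 for Th (limma adjusted p = 0.659). With array weights it was 0.754 for Th, 1.0 for Ddc, 1.08 for Npy and 0.883 for Chgb. Phox2a lay above 0 without ATLO replicate 2 (0.105), without outside-lesion replicate 3 (0.018) and without outside-lesion replicate 4 (0.35).

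ATLO and outside-lesion adventitia were each also compared with wild type. These comparisons share the wild-type arrays, and each shares its other group with the comparison above. Against wild type, 0 of 8 members were called in ATLO by limma, 0 at an unadjusted p under 0.05 (lowest 0.456), and 0 did not overlap, while 26.8% of all tested probe sets were called and 38.1% did not overlap. In outside-lesion adventitia 0 of 8 were called, 0 at an unadjusted p under 0.05 (lowest 0.135), and 0 did not overlap, against 3.26% called and 21.5% not overlapping over all tested.

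For ATLO minus wild type, 3 members lay above 0 and 5 below (Ddc moved above 0, to 0.042, with equal array medians), with a median of -0.08 on the log2 scale against -0.05 over all tested. Th stood at -0.19 ± 1.09 (SE, 95% interval -2.54 to 2.16), Ddc at -0.01 ± 1.20 (SE, -2.60 to 2.57) and Npy at 0.14 ± 1.16 (SE, -2.36 to 2.63), with limma adjusted p-values of 0.916, 0.996 and 0.946. Outside-lesion minus wild type lay below 0 for 8 of 8 members, with a median of -1.30 against -0.11 over all tested, of which 39.1% were above 0. Here Th stood at -1.52 ± 1.09 (SE, 95% interval -3.87 to 0.83), Ddc at -1.73 ± 1.20 (SE, -4.32 to 0.86) and Npy at -1.69 ± 1.16 (SE, -4.19 to 0.80), with limma adjusted p-values of 0.422, 0.404 and 0.397. Setting the array medians equal raised the all-probe median of this comparison by 0.17 and left all 8 below 0, but the count and the sizes depended on single arrays. Without wild-type replicate 1, Th stood at -0.43, Ddc at -0.32, Dbh at -0.37 and Npy at -0.45, and Chgb (0.0018), Chga (0.45) and Phox2a (0.47) lay above 0. Array weights gave -0.24 for Th, -0.29 for Ddc and -0.30 for Npy, with Chga and Phox2a above 0. Chga (0.005) and Phox2a (0.062) also lay above 0 without outside-lesion replicate 1. The sizes grew without wild-type replicate 2, to -2.49 for Th, -3.03 for Ddc and -2.90 for Npy, and without outside-lesion replicate 4, to -2.46, -2.75 and -2.74. None of these values was called.

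**Figure D2:**
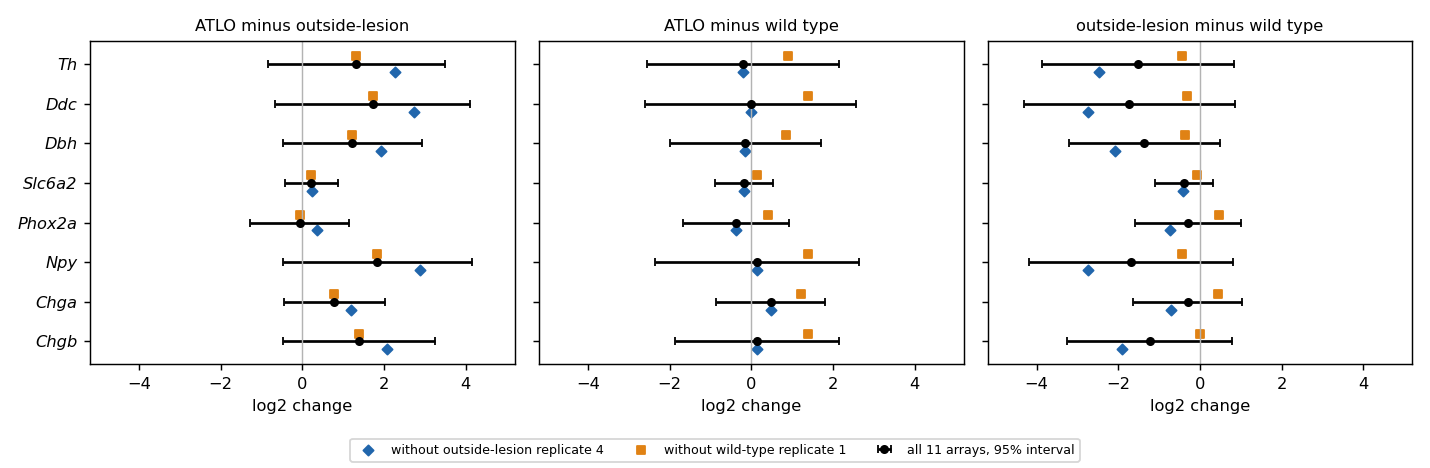
Fitted log2 change of each gene (black circles, bars 95% intervals, all 11 arrays) in the 3 comparisons, with the value without outside-lesion replicate 4 (blue diamonds) and without wild-type replicate 1 (orange squares). Every interval includes 0. Leaving out outside-lesion replicate 4 moves the values of the first and last panels, and leaving out wild-type replicate 1 those of the second and last panels.

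The order of the groups depended on the summary used. By the mean, wild type was highest and outside-lesion lowest for 6 of 8 members. By the median, ATLO was highest and outside-lesion lowest for 6 of 8, the exceptions being Phox2a and Slc6a2. The median Th signal was 589.9 in ATLO, 470.3 in wild type and 178.25 outside lesions, and the median Npy signal 2190.9, 1628.0 and 464.5 in the same order. No neighbours in either order differed beyond the spread of their arrays by the fit.

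The spread within groups was itself measured against the other probe sets. The SD of log2 signal around the group mean was 2.02 for Ddc, 1.95 for Npy, 1.83 for Th, 1.56 for Chgb and 1.43 for Dbh, larger than in 99.6% to 99.9% of tested probe sets, whose median was 0.317. Phox2a, at 0.960, and Chga, at 0.955, exceeded 98.1% of them. Slc6a2, at 0.402, exceeded 68.1%. The median SD of the 8 members was 0.658 among ATLO arrays, 1.59 among outside-lesion arrays and 1.96 among wild-type arrays, while the median over all tested probe sets was 0.294, 0.303 and 0.226.

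The members shared the arrays on which they were high or low. Wild-type replicate 1 was the highest of its group for 8 of 8 members, against 32.6% of all tested probe sets, and outside-lesion replicate 4 for 7 of 8, against 21.7%. Among ATLO arrays, replicate 4 was highest for 5 and replicate 3 for the other 3. ATLO replicate 2 was the lowest of its group for 7 of 8 members, wild-type replicate 2 for 7 of 8 and outside-lesion replicate 1 for 6 of 8, against 28.9%, 27.5% and 31.0% of all tested. The replicate numbers are used here only to name the arrays.

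Joint variation was described by correlating the members' deviations from their group means over the 11 arrays. It is given without p-values, because all pairs share the same arrays and scaling. Over the 28 pairs of members, Pearson's r ran from 0.432 to 0.990 with a median of 0.916, and Spearman's rho from 0.409 to 0.991 with a median of 0.850. Without outside-lesion replicate 4 and wild-type replicate 1, on which Th deviated most (2.84 and 2.17 above the group mean, log2), r ran from -0.203 to 0.992 with a median of 0.772.

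Th, Ddc, Dbh, Phox2a, Npy and Chgb varied together most closely. Their 15 pairs had r from 0.907 to 0.990, and from 0.758 to 0.992 over the 9 arrays that remained without the 2 above. Ddc and Dbh had an r of 0.990, Ddc and Npy 0.988, and Npy and Chgb 0.981, and over 9 arrays these pairs had 0.961, 0.963 and 0.992. Slc6a2 followed the others less closely, with a median r of 0.724 over its 7 pairs and 0.708 over 9 arrays. The 7 pairs with Chga had a median r of 0.794, which was 0.196 over 9 arrays, so the relation of Chga to the others rests on those 2 arrays. Chga read 13.2 on outside-lesion replicate 1 and 35.5 on wild-type replicate 3, under and near the floor.

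**Figure D3:**
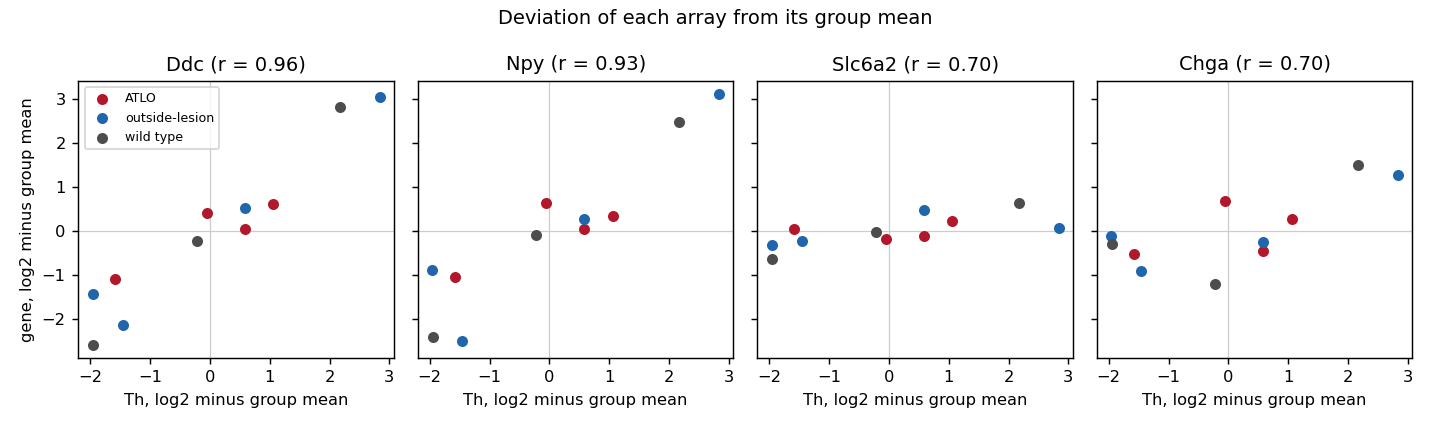
Deviation of each array from its group mean (log2) for Th on the horizontal axis and for Ddc, Npy, Slc6a2 and Chga on the vertical axes, 1 point per array, coloured by group. Ddc and Npy follow Th over the whole range, Slc6a2 stays close to 0, and the Chga points rise mainly through the 2 arrays at the right.

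Set against Th, Ddc had r = 0.962, Dbh 0.956, Npy 0.927, Phox2a 0.925, Chgb 0.907, Chga 0.704 and Slc6a2 0.698. Over the 14980 other tested probe sets the median r with Th was 0.00516 and the 95th percentile 0.627, and 77 of them, or 0.514%, reached 0.9. Every member other than Th lay above that percentile over 11 arrays. Over 9 arrays the 95th percentile was 0.704, above which lay Ddc (0.894), Dbh (0.875), Phox2a (0.824), Npy (0.767), Chgb (0.758) and Slc6a2 (0.725), and Chga, at 0.0499, lay below it.

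The ratio of a member to Th on the same array shows how far 2 genes moved apart. The within-group SD of the log2 ratio was 0.565 for Ddc, 0.624 for Dbh, 0.733 for Npy and 0.778 for Chgb. It was 1.01 for Phox2a, 1.34 for Chga and 1.58 for Slc6a2, against 1.83 for the log2 signal of Th itself. The mean log2 ratio of Ddc to Th was 0.56 in ATLO, 0.17 outside lesions and 0.38 in wild type, and that of Dbh to Th 0.17, 0.27 and 0.12. The group means of each ratio differed by less than its within-group SD, except for Phox2a. Its mean log2 ratio to Th was -2.02 in ATLO, -0.63 outside lesions and -1.84 in wild type, a wider range than its within-group SD. Differences in these ratios were not tested. Only the change of such a ratio between arrays can be read, since probe sets differ in how strongly they respond to their transcript.

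The 8 probe sets of other genes most like Th over the 11 arrays were those of Chrna3 (r = 0.987), Bex2 (0.984), Snap25 (0.980), Gap43 (0.978), Stmn3 (0.974), Rit2 (0.973), Cadps (0.972) and Stmn2 (0.971). Chrna3 encodes an alpha subunit of the nicotinic receptor through which preganglionic axons drive sympathetic neurons, Snap25 a protein of the machinery that fuses vesicles with the membrane, and Gap43 a protein of growing axons. Stmn2 and Stmn3 encode stathmins, which bind tubulin in neurons, and Cadps a protein that primes dense-core vesicles. Over 9 arrays these 8 had r from 0.917 to 0.990. The Chrna3 signal was 193.6, 71.9, 120.3 and 227.7 on the ATLO arrays, 8.6, 17.4, 84.0 and 348.2 on the outside-lesion arrays and 717.3, 67.2 and 154.7 on the wild-type arrays. The same arrays were at the top of the outside-lesion and wild-type groups as for Th. Choosing the 8 by their likeness to Th on these arrays favours this, and also favours high values over the 9 arrays, which are among the 11.

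Genes of the same neurons and vesicles that are not among the 9 were described in the same way. Of 20 other noradrenergic genes, such as transcription factors, monoamine oxidase and receptors, 16 were measured. The transcription factor genes Hand2, Gata3, Insm1 and Tfap2b did not pass the filter on low values, while Gata2 and Isl1 did. The 10 tested had r with Th from 0.131 for Ret to 0.987 for Chrna3, with a median of 0.903. Of these, 0 were called higher and 1 lower in ATLO than outside lesions, 0 higher and 1 lower in ATLO than in wild type, and 0 in either direction outside lesions against wild type (limma, 31.9%, 26.8% and 3.26% of all tested). The one called was Gata2, a GATA transcription factor also made by endothelial and blood cells, which was lower in ATLO by both comparisons. Its log2 change was -0.57 ± 0.20 against outside-lesion (SE, limma adjusted p = 0.0417) and -0.85 ± 0.21 against wild type (SE, limma adjusted p = 0.0111). Its r with Th was 0.669. Maoa, monoamine oxidase A, which breaks down noradrenaline, had an r of 0.953 and no call.

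Of 16 genes of dense-core vesicles and peptide processing 14 were measured and 13 tested, with a median r with Th of 0.817. Their r ran from -0.311 for Cpe to 0.980 for Snap25, and 2 of 13, Cpe and Pam, lay below 0. Only Pcsk1, a convertase that cuts peptide precursors, was called, 1 of 13 against 31.9% of all tested probe sets in that comparison. It was higher in ATLO than outside lesions by 1.37 ± 0.45 on the log2 scale (SE, limma adjusted p = 0.0328). It read 127.4, 97.3, 117.7 and 93.6 on the ATLO arrays and 5.3, 13.0, 70.0 and 24.7 on the outside-lesion arrays, of which 3 lay under the floor. Its r with Th was 0.562.

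All 14 general neuron and axon genes were measured and 13 tested, with a median r with Th of 0.923 and 8 of 13 at 0.9 or more. Their summed signal ran from 1670.3 to 5298.8 in ATLO, 787.7 to 6487.8 outside lesions and 1523.1 to 18981.2 in wild type. Of the 13, 0 were called between ATLO and either other group by limma, against 31.9% (outside-lesion) and 26.8% (wild type) of all tested. Only Ncam1, a neural cell adhesion molecule, was called outside lesions against wild type, 1 of 13 against 3.26% of all tested. Its log2 change was -2.72 ± 0.64 (SE, limma adjusted p = 0.0392). Of its 6 probe sets the one with the highest mean was used, and outside-lesion replicate 2 read 18.5, under the floor.

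**Figure D4:**
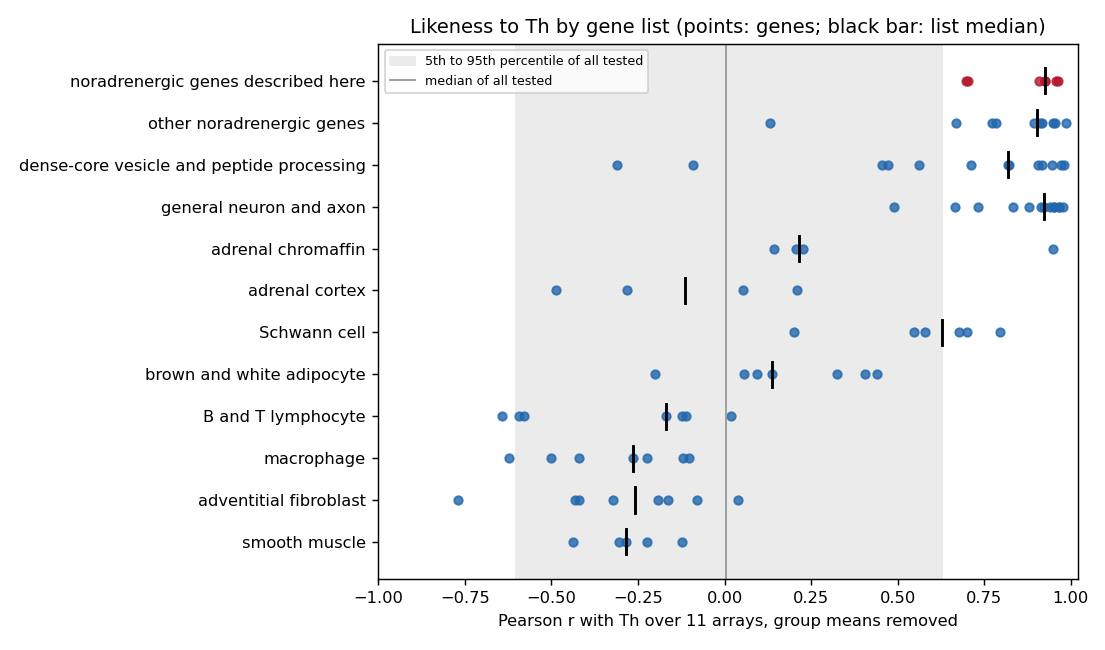
Pearson r with Th over the 11 arrays, group means removed, for each tested gene (points) of each list, with the list median as a black bar and the range from the 5th to the 95th percentile of all tested probe sets shaded. The neuron lists lie mostly right of the shading, and the adipocyte, lymphocyte, macrophage, fibroblast and smooth muscle genes lie inside it or to its left.

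Noradrenergic genes are also expressed by chromaffin cells of the adrenal medulla, and aortas removed with the surrounding tissue could hold other cells, so markers of these were set beside the members. The 4 chromaffin genes, all tested, had a median r with Th of 0.216. Pnmt, which makes adrenaline and defines adrenergic chromaffin cells, read 37.8 to 181.5 over the 11 arrays with an r of 0.144. Wild-type replicate 1, the highest array for every member, read 57.1 for Pnmt. Slc18a1, also in the chromaffin list, read 69.8 to 177.5 with an r of 0.227, and was highest on wild-type replicate 1. Cyb561, an electron carrier of the vesicle membrane that is also in the noradrenergic list, had an r of 0.950. Penk, which encodes enkephalins, was the 1 of 4 called, lower in ATLO than in wild type, where 26.8% of all tested were called (-0.78 ± 0.18 on the log2 scale, SE, limma adjusted p = 0.00783). The summed chromaffin signal ran from 1656.6 to 2561.1 in ATLO, 1650.1 to 2889.8 outside lesions and 2670.5 to 4551.6 in wild type.

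Of 8 adrenal cortex genes 6 were measured and 4 tested, with a median r of -0.11. Cyp11a1, which starts steroid synthesis, was at the floor on all 11 arrays. Hsd3b1 was at it on 8 arrays, Nr5a1 on 3 and Mc2r on 1, while Star and Cyp21a1 lay above it on all 11. The summed signal ran from 306.1 to 452.5 in ATLO, 356.9 to 767.1 outside lesions and 649.8 to 734.0 in wild type. Star, which brings cholesterol into mitochondria, was the 1 of 4 called, lower in ATLO than outside lesions, where 31.9% of all tested were called (-0.51 ± 0.17 on the log2 scale, SE, limma adjusted p = 0.0324). Of 4 cholinergic and 9 sensory neuron genes, 3 and 4 were measured and 0 of either list passed the filter on low values. The sensory sodium channel gene Scn10a was at the floor on all 11 arrays, and the highest summed signal on any array was 257.6 for the cholinergic and 149.0 for the sensory genes.

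Schwann cells wrap the axons of peripheral nerves. Of 10 Schwann cell genes 6 were measured and tested, with r with Th from 0.200 to 0.796 and a median of 0.628. Their summed signal ran from 5959.0 to 8988.3 in ATLO, 5613.4 to 9604.1 outside lesions and 6554.1 to 11365.9 in wild type. S100b, a calcium-binding protein also made by adipocytes, was the 1 of 6 called, against 31.9% of all tested. It was lower in ATLO than outside lesions, with a log2 change of -1.35 ± 0.35 (SE, limma adjusted p = 0.0102).

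Markers of other cells of the adventitia were called in many cases. In ATLO against outside-lesion adventitia, 7 of 7 tested B and T lymphocyte genes, 5 of 7 macrophage genes and 4 of 8 fibroblast genes were called higher by limma, and 6 of 7 adipocyte genes and 1 of 5 smooth muscle genes were called lower, against 31.9% of all tested called in either direction. Against wild type, 6 of 7 lymphocyte, 4 of 7 macrophage and 3 of 8 fibroblast genes were called higher in ATLO and 5 of 7 adipocyte and 4 of 5 smooth muscle genes lower, against 26.8% in either direction. Outside lesions against wild type, 2 of 8 fibroblast genes were called lower and 0 genes of the other 4 lists were called, against 3.26%. The summed lymphocyte signal ran from 4202.3 to 14586.9 in ATLO against 690.8 to 1468.8 outside lesions, and the summed adipocyte signal from 26874.5 to 75625.1 against 127944 to 238050. Within groups these 5 lists had median r with Th of -0.17 (lymphocyte), -0.27 (macrophage), -0.26 (fibroblast), 0.14 (adipocyte) and -0.28 (smooth muscle). The part of tissue makeup in the members' differences was not tested.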

How the data were processed

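Affymetrix arrays measured adventitia of 4 ATLO, 4 outside-lesion and 3 wild-type samples. The deposited values are signal intensities per probe set on a linear scale, and the authors used GCOS 1.4 per the submitters' processing notes. The summary method beyond that name and the genome build are not given in the sources used here. The deposited intensities had a mean after trimming 2% at each end of 500.168 to 500.266 per array, so each array had been scaled to 1 level, with median signals of 152.3 to 191.7. Detection calls were not used.

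Of 22690 probe sets 64 controls were left out, and 20380 of the rest had 1 symbol, 691 several and 1555 none in the platform annotation. Only those with 1 symbol were named, and the one with the highest mean stood for a list gene with several. Signals were raised to 35.1 and taken to log2, which understates folds near that floor, and a probe set entered the test if 3 or more arrays exceeded the 40th percentile of their own signals (93.1 to 124.2). limma 3.58.1 in R 4.3.3 fitted a mean per group to all 11 arrays with an intensity trend, giving Benjamini-Hochberg adjusted p-values over the 14988 tested and a threshold of 0.05. The fit was tested on simulated data. Errors are SD for signals and SE for log2 changes.

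The members, lists and motifs were chosen with earlier results of these data known. Named were all members, the called genes of the neuron, adrenal and Schwann cell lists (at most 2 in each direction per comparison), the 8 genes most like Th, and Apoe. Single genes cited beside a list without a call were chosen after their values were seen, and the lymphocyte, macrophage, fibroblast, adipocyte and smooth muscle lists are given by counts. The alternatives tried were equal array medians, quantile normalization, other floors and filters, only the compared groups, a replicate block, array weights, no intensity trend and each array left out in turn.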

Additional observations from a re-analysis of the deposited data

How the results depend on the processing

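With the replicate number as a block, 0 of 8 members were called in each comparison, as without it. This replicate block called 4744, 3819 and 189 probe sets in ATLO minus outside-lesion, ATLO minus wild type and outside-lesion minus wild type, against 4777, 4012 and 489. Same-numbered samples had deviation correlations of 0.040 to 0.153 between ATLO and outside-lesion, and of -0.178 to 0.273 with wild type. Not all were over 0.1, and the main fit did not pair samples. Samples with different numbers were not correlated, so these values cannot decide whether the numbers pair samples. The count of 489 was 301 with no filter, 202 with only the compared groups, 1530 with array weights, 248 with no intensity trend, and 21 to 886 with 1 array left out (without wild-type replicate 2 and without outside-lesion replicate 2). Equal array medians moved the calls that were higher from 56.3% to 44.1% in ATLO minus outside-lesion and from 52.8% to 87.3% in outside-lesion minus wild type. Leaving out 1 array gave 0 to 1 members called in ATLO minus outside-lesion. The median r of the 28 pairs was 0.772 without the 2 arrays on which Th deviated most.

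Of 495 member changes under the alternatives, 465 kept their sign and call, 29 changed sign, none of them called, and 1 became called (Npy). In ATLO minus wild type, the log2 change was -0.22 for Chgb and -0.44 for Npy with the replicate block, 0.51 for Th, 0.71 for Ddc and 0.43 for Dbh with array weights, and 0.042 for Ddc with equal medians. In outside-lesion minus wild type, array weights gave 0.026 for Chga and 0.26 for Phox2a. With 1 array left out, Phox2a ran from -0.43 to 0.35 in ATLO minus outside-lesion. In ATLO minus wild type, Th ran from -1.17 to 0.89, Ddc from -1.31 to 1.4, Dbh from -0.98 to 0.86, Slc6a2 from -0.49 to 0.15, Phox2a from -0.87 to 0.40, Npy from -1.07 to 1.38, Chga from -0.12 to 1.22 and Chgb from -0.96 to 1.38. In outside-lesion minus wild type, Phox2a ran from -0.80 to 0.47, Chga from -0.90 to 0.45 and Chgb from -2.34 to 0.0018. The highest of these came without outside-lesion replicate 4 in the first comparison and without wild-type replicate 1 in the others. The causes were not tested. With 3 or 4 arrays per group and this spread, the intervals do not separate a difference of several fold from none.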
